A study of Mus musculus with 90 samples.

Results

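The comparison described here asked which liver transcripts differed between mice with and without the glucocorticoid receptor (GR) in hepatocytes, on caloric restriction, 8 h after the daily food was offered. Its 6 livers, 3 WT and 3 GR LKO, were taken out of the 90 libraries of the series by their titles, which give the diet, the sampling time ZT20 and the genotype. ZT is zeitgeber time in hours, with lights on at ZT0 and lights off at ZT12. The series is bulk RNA-seq of mouse liver, mostly on caloric restriction or on a control diet of free feeding that was limited to the night in the last week, with small sets at ZT12 that are titled AL and Cort.

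All 6 mice were C57BL/6J males of 20 to 21 weeks that entered the feeding protocol at 12 weeks of age and followed it for 8 weeks. Their food was lowered in weekly steps to 40% below their own unrestricted intake and then held there, and it was offered at ZT12. WT mice carried floxed GR alleles (GRfl/fl) without Cre, and GR LKO mice carried the same alleles with Alb-Cre, which deletes them in hepatocytes. Other liver cells of GR LKO mice keep the receptor, and the deletion is present from early life rather than at the sampling time alone. Each library came from the liver of a separate, singly housed mouse. In a piece of whole tissue, fewer cells of a type cannot be told from less RNA per cell.

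GR is a nuclear receptor that binds corticosterone in mice and regulates genes of gluconeogenesis, amino acid breakdown and inflammation. Corticosterone is high around the onset of the active phase, and caloric restriction raises it further. ZT20 falls in the later night, past the hours around feeding.

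The 6 libraries held 16719300, 17874200 and 17627600 estimated counts in WT and 17113600, 17286400 and 15904100 in GR LKO, with a median of 17200000. Levels are given in CPM, which are counts divided by the library total and edgeR's TMM factor, and always in the order of replicates 1, 2 and 3. Fold changes are GR LKO against WT on the log2 scale, where 1 is a doubling and a negative value is a lower level in GR LKO. A gene was called when edgeR's quasi-likelihood test gave a Benjamini-Hochberg adjusted p-value under 0.05. Groups are said not to overlap when every liver of one genotype lay above every liver of the other.

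The targeted gene, *Nr3c1* (ENSMUSG00000024431, chr18:39410545-39519421, minus strand), was low in each GR LKO liver. It stood at 96.4, 92.9 and 80.0 CPM in the WT livers, against 26.3, 25.6 and 24.4 CPM in the GR LKO livers. The means were 89.8 ± 8.63 CPM in WT and 25.4 ± 0.978 in GR LKO (SD, n = 3 each), which is 3.53 times as much in WT. Every GR LKO liver lay below every WT liver (log2 fold change -1.82, standard error 0.10, adjusted p = 0.00116). Transcripts of other liver cells and of undeleted exons still count towards the gene. The reduction was of like size at the other times of caloric restriction, with log2 fold changes of -1.83 at ZT0, -1.84 at ZT4, -2.002 at ZT8, -1.70 at ZT12 and -1.84 at ZT16. On control diet at ZT20 it was -1.89.

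Hepatocyte transcripts were abundant in all 6 livers, and the 7 hepatocyte markers summed to 131895, 147838 and 132256 CPM in WT and 112266, 137270 and 120236 in GR LKO. *Alb*, which encodes albumin, was the most abundant of them, with 101511, 115504 and 101530.0 CPM in WT and 86812, 111798 and 91804 in GR LKO. The list took 13.7% of the WT counts and 12.3% of the GR LKO counts, and its median log2 fold change was -0.28 beside 0.004 for all genes. *Apoa1*, *Serpina1a*, *Hnf4a* and *Cps1* were lower in every GR LKO liver than in every WT liver. edgeR called 0 of the 40 cell type markers tested in 10 lists, of which 8 had an unadjusted p under 0.05 and DESeq2, a second test for counts, called 5 (*Col1a1*, *Hnf4a*, *Spp1*, *Lyve1* and *Apoa1*). Of all 12076 genes tested, 2340 had an unadjusted p under 0.05 in edgeR.

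GR LKO replicate 1 stood apart from the other 5 livers in markers of non-hepatocytes. It had the highest value of 8 of 8 Kupffer and myeloid cell markers, which summed to 148, 108 and 97.0 CPM in WT and 276, 102 and 108 in GR LKO. *Clec4f*, a Kupffer cell lectin and the most abundant of them, had 47.8, 36.6 and 31.5 CPM in WT and 77.8, 30.2 and 32.6 in GR LKO. Stellate cell markers summed to 327, 293 and 321 CPM in WT and 484, 286 and 257 in GR LKO, with 5 of 6 highest in that liver and *Dcn* the most abundant (GR LKO 283, 161 and 142 CPM). Lymphocyte markers were scarce and summed to 1.82, 1.93 and 1.32 CPM in WT and 6.30, 2.09 and 1.65 in GR LKO, 5 of 6 highest there, led by *Cd79a* with 1.58, 0.580 and 0.254 CPM in GR LKO. Cholangiocyte markers summed to 48.6, 43.2 and 52.3 CPM in WT and 106, 87.7 and 50.2 in GR LKO, with 5 of 5 highest in replicate 1, and *Spp1*, the most abundant, was also high in replicate 2 (92.0, 79.3 and 41.9 CPM in GR LKO).

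Endothelial markers summed to 207, 192 and 182 CPM in WT and 214, 203 and 184 in GR LKO, with *Clec4g* the most abundant and 3 of 6 highest in GR LKO replicate 1. Erythrocyte markers summed to 583, 242 and 692 CPM in WT and 767, 438 and 606 in GR LKO, 4 of 6 highest in the same liver, with *Hbb-bs* the most abundant. Neutrophil markers, with *S100a9* the most abundant and *Ly6g* at 0 in all livers, summed to 2.06, 0.584 and 0.687 CPM in WT and 1.79, 1.39 and 0.698 in GR LKO, 1 of 5 highest in replicate 1. Adipocyte markers summed to 10.1, 13.5 and 11.6 CPM in WT and 13.3, 11.7 and 16.05 in GR LKO, with *Fabp4* the most abundant, *Plin1*, *Lep* and *Retn* at 0 and 0 of 7 highest in replicate 1. Exocrine pancreas markers reached at most 0.571 CPM in sum, and 7 of 10 were at 0 in every liver (*Prss2*, *Cela3b*, *Cpa1*, *Cpb1*, *Pnlip*, *Ctrb1* and *Try5*). In a principal component analysis, the first component (35.7% of the variance) held all WT livers at -29.9, -24.3 and -33.7 and all GR LKO livers at 30.7, 37.9 and 19.3. The second (22.0%) set GR LKO replicate 1 at -46.4 apart from 24.8 and 22.3 for the other GR LKO livers. The part of these cells in the results below was not tested.

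At ZT20 the genotypes differed in 178 of 12076 tested genes, or 1.47%. Of these, 98 rose (0.812%) and 80 fell (0.662%) in GR LKO livers. The change was more than 2-fold for 94 of them, and 177 were protein-coding genes. None of the 178 had overlapping genotypes, while 3231 genes (26.8% of those tested) did not overlap in all, 1571 higher and 1660 lower in GR LKO. The number with an unadjusted p under 0.05 was 2340. The fold changes of all tested genes had a median of 0.004.

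The number of calls fell strongly whichever WT liver was left out, and by a like amount for each. It was 18 without WT replicate 1, 22 without WT replicate 2 and 16 without WT replicate 3, with 18, 21 and 14 of the 178 among them. Without GR LKO replicate 2 there were 82 (70 shared), and without GR LKO replicate 3 there were 149 (97 shared). Without GR LKO replicate 1, the liver with the high non-hepatocyte markers, 194 genes were called, 99 higher and 95 lower, with 118 of the 178 among them. DESeq2 called 686 genes, including all 178, and a single edgeR fit of all 36 livers on caloric restriction called 1127, including 160. With the replicate numbers taken as blocks the count was 76 (65 shared). Scaling by library totals alone, where the median of all genes was 0.067, gave 180 calls and changed the split to 121 higher and 59 lower, or 67.2% higher beside 55.1%.

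Of the 53 named genes that were called, 8 kept their call whichever of the 6 livers was left out, and 5 lost it with each of them. The 8 were *Nr3c1*, *Nrbp2*, *Cyp2c40*, *Mfsd2a*, *Acnat2*, *Eif4ebp3*, *Slc3a1* and *Apoa4*. In the paragraphs that follow, the numbers after the words "lost its call" are adjusted p-values of the same gene without the named liver or under the named setting.

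**Figure D1:**
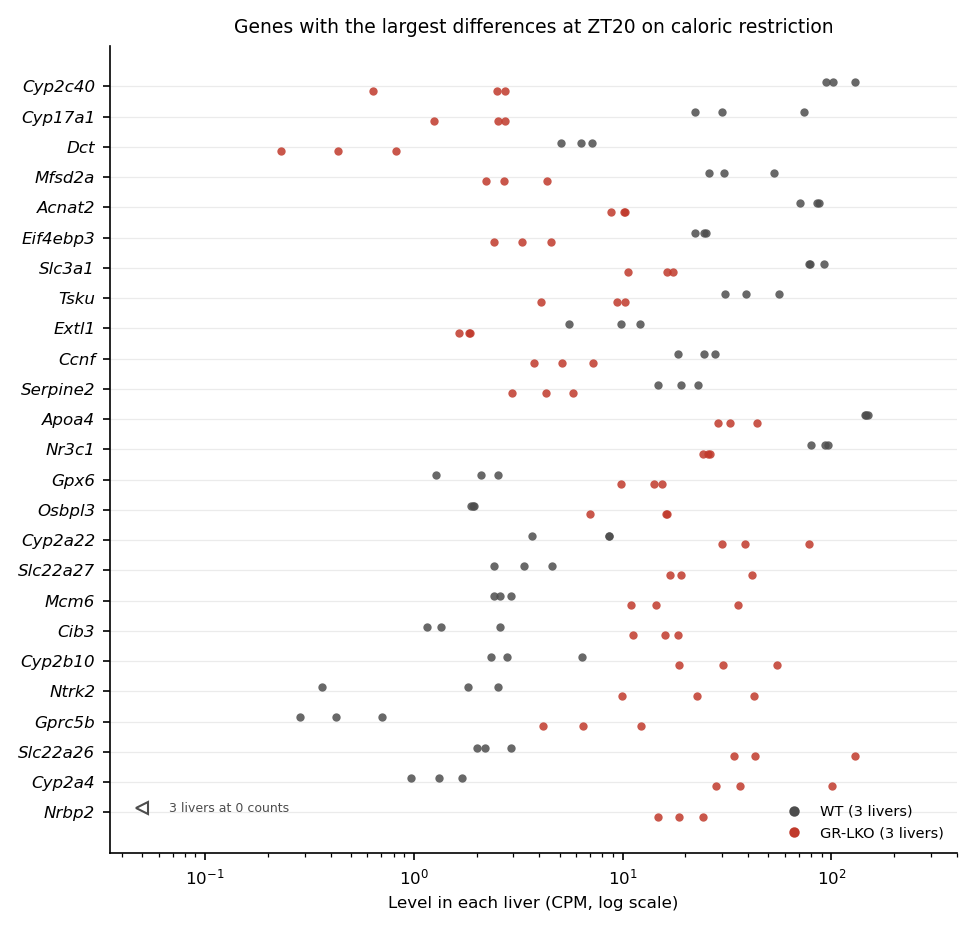
Level of the 12 genes that rose most, the 12 that fell most (called protein-coding genes with a mean of at least 5 CPM in a genotype) and *Nr3c1* in each liver at ZT20 on caloric restriction, in CPM on a log scale, WT in grey and GR LKO in red, 1 point per liver (n = 3 per genotype). *Cyp2c40* stood at 102 CPM in WT replicate 2 and 2.73 CPM in GR LKO replicate 2, and the open triangle marks the 3 WT livers without a count for *Nrbp2*.

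Among called protein-coding genes with a mean of at least 5 CPM in a genotype, the 12 that rose most were led by *Nrbp2*, described below, and the log2 fold changes of the other 11 lay between 2.73 and 5.37. Among them were 3 cytochromes P450 and 2 organic anion transporters. *Cyp2a4* (ENSMUSG00000074254), a steroid 15-alpha-hydroxylase that is higher in female than male liver, rose 41.3-fold. WT livers had 0.970, 1.69 and 1.32 CPM and GR LKO livers 36.7, 101 and 28.0 CPM (log2 fold change 5.37, standard error 0.60, adjusted p = 0.0141). All 3 WT livers were low and GR LKO replicate 2 was the highest. *Slc22a26* (ENSMUSG00000053303), of the organic anion transporter family, had 2.18, 2.92 and 2.004 CPM in WT and 34.3, 129.7 and 43.1 in GR LKO (log2 fold change 4.86, standard error 0.59, adjusted p = 0.0170). Its relative *Slc22a27* had 2.43, 3.39 and 4.58 CPM in WT and 19.1, 41.8 and 16.9 in GR LKO (log2 fold change 2.90, standard error 0.41, adjusted p = 0.0255). Both transporters were low in each WT liver and highest in GR LKO replicate 2. *Cyp2a4* lost its call without WT replicate 1, 2 or 3 (0.0919, 0.0703 and 0.100). *Slc22a26* lost its call without WT replicate 1, 2 or 3 (0.0948, 0.0715 and 0.108), and *Slc22a27* lost its call without WT replicate 1, 2 or 3 (0.119, 0.106 and 0.106). Without GR LKO replicate 2 the log2 fold change of *Cyp2a4* was 4.59 and that of *Slc22a26* was 4.02.

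*Cyp2b10*, a P450 induced through the receptor CAR, had 2.79, 6.37 and 2.35 CPM in WT and 18.6, 54.6 and 30.3 in GR LKO (log2 fold change 3.17, standard error 0.51, adjusted p = 0.0351). *Cyp2a22* had 3.70, 8.64 and 8.59 CPM in WT and 38.5, 77.9 and 29.8 in GR LKO (log2 fold change 2.80, standard error 0.45, adjusted p = 0.0351). For each of these P450s GR LKO replicate 2 was highest and every WT liver lay below the GR LKO livers. Cyp2a, Cyp2b and Slc22a genes have near-identical relatives, so that the counts of each are uncertain. *Cyp2b10* lost its call without WT replicate 1, 2 or 3 (0.158, 0.0703 and 0.139), or GR LKO replicate 2 or 3 (0.0660 and 0.0610). *Cyp2a22* lost its call without WT replicate 1, 2 or 3 (0.127, 0.115 and 0.134), or GR LKO replicate 1 or 2 (0.0521 and 0.0535).

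Of the 12, 5 others have varied roles. *Ntrk2* (ENSMUSG00000055254), the receptor of brain-derived neurotrophic factor, had 0.364, 1.81 and 2.52 CPM in WT and 22.8, 42.5 and 9.90 in GR LKO (log2 fold change 3.99, standard error 0.69, adjusted p = 0.0450). *Gprc5b*, an orphan G protein-coupled receptor, had 0.424, 0.701 and 0.286 CPM in WT and 6.46, 4.18 and 12.3 in GR LKO (log2 fold change 4.001, standard error 0.52, adjusted p = 0.0189). *Cib3*, of the calcium and integrin binding family, had 1.15, 1.34 and 2.58 CPM in WT and 15.9, 18.5 and 11.2 in GR LKO (log2 fold change 3.16, standard error 0.33, adjusted p = 0.0118). GR LKO replicate 2 was highest for *Ntrk2* and *Cib3* and replicate 3 for *Gprc5b*. *Osbpl3*, which encodes an oxysterol-binding protein relative, had 1.94, 1.93 and 1.89 CPM in WT and 16.3, 7.02 and 16.1 in GR LKO (log2 fold change 2.77, standard error 0.34, adjusted p = 0.0170). *Gpx6*, of the glutathione peroxidase family, had 1.27, 2.10 and 2.52 CPM in WT and 9.78, 14.1 and 15.4 in GR LKO (log2 fold change 2.73, standard error 0.28, adjusted p = 0.0118). The WT livers were close together for *Osbpl3*, and the genotypes did not overlap for any of the 5 genes. *Ntrk2* lost its call without WT replicate 1, 2 or 3 (0.143, 0.150 and 0.137), or GR LKO replicate 1 or 2 (0.0683 and 0.0931), and with replicate numbers as blocks (0.0941), and without GR LKO replicate 2 its log2 fold change was 3.37. *Gprc5b* lost its call without WT replicate 1, 2 or 3 (0.106, 0.0715 and 0.109), and with replicate numbers as blocks (0.0659). *Cib3* lost its call without WT replicate 1 or 2 (0.0647 and 0.0662), and *Gpx6* lost its call without WT replicate 2 or 3 (0.0662 and 0.0546). *Osbpl3* lost its call without WT replicate 1, 2 or 3 (0.0948, 0.0760 and 0.103).

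*Nrbp2* (ENSMUSG00000075590, chr15:76085518-76091627, minus strand), which encodes a pseudokinase, had no count in any WT liver and 14.8, 24.2 and 18.6 CPM in the GR LKO livers (adjusted p = 0.00360). The GR LKO mean was at least 108.8-fold the WT level, taken against a floor of 3 counts in each library. The gene was not called at the other times or on control diet, and it did not pass the filter at ZT16. At ZT4 on caloric restriction WT livers had 25.28, 24.39 and 24.43 CPM and GR LKO livers 18.64, 24.37 and 0 CPM (log2 fold change -0.79, adjusted p = 0.778). GR LKO replicate 2 was level with the WT livers there. At ZT0 on caloric restriction WT livers had 26.7, 34.8 and 32.6 CPM and GR LKO livers 34.4, 0 and 18.8 CPM, and at ZT16 WT livers had 0, 45.5 and 0 CPM and GR LKO livers 0, 0 and 0 CPM. On control diet at ZT20 WT livers had 39.8, 0, 25.0 and 17.0 CPM and GR LKO livers 18.8, 0 and 17.9 CPM. Single livers of both genotypes were thus at 0 beside others at a clear level. Whether these zeros are a lack of expression or come from the assignment of reads to transcripts was not tested, and the bound holds for the deposited counts alone. *Nrbp2* lost its call in the fit of all caloric restriction livers (0.115).

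Under the same limit of 5 CPM, the 12 genes that fell most had log2 fold changes from -5.77 to -2.06, and 2 cytochromes P450 led them. *Cyp2c40* (ENSMUSG00000025004), a P450 of arachidonic acid metabolism, had 130.2, 102 and 94.4 CPM in WT and 2.50, 2.73 and 0.634 in GR LKO, 54.6 times as much in WT (log2 fold change -5.77, standard error 0.39, adjusted p = 0.00321). *Cyp17a1* (ENSMUSG00000003555), the 17-alpha-hydroxylase of steroid synthesis, had 73.6, 22.1 and 29.9 CPM in WT and 1.25, 2.73 and 2.54 in GR LKO (log2 fold change -4.27, standard error 0.55, adjusted p = 0.0184). Each GR LKO liver held less than 3 CPM of both genes, and WT replicate 1 was highest. Cyp2c genes are a family with near-identical members, which makes the count of *Cyp2c40* uncertain. *Cyp17a1* lost its call without WT replicate 3 (0.0767), or GR LKO replicate 2 or 3 (0.0612 and 0.0507), and with replicate numbers as blocks (0.0581), and without WT replicate 1 its log2 fold change was -3.59.

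*Acnat2* (ENSMUSG00000060317, chr4:49379840-49408151, minus strand), which conjugates fatty acids to amino acids, had the smallest adjusted p of all genes. WT livers had 85.8, 70.9 and 87.8 CPM and GR LKO livers 8.80, 10.2 and 10.3 CPM, with means of 81.5 ± 9.22 and 9.74 ± 0.819 CPM (SD, n = 3; log2 fold change -3.06, standard error 0.12, adjusted p = 0.000290). The GR LKO livers were close together and all WT livers far above them. *Mfsd2a*, a transporter of lysophosphatidylcholine, had 53.2, 30.7 and 25.8 CPM in WT and 2.72, 4.35 and 2.22 in GR LKO (log2 fold change -3.56, standard error 0.36, adjusted p = 0.0116). *Apoa4* (ENSMUSG00000032080), apolipoprotein A-IV, had 145, 146 and 149 CPM in WT and 32.5, 44.0 and 28.7 in GR LKO (log2 fold change -2.06, standard error 0.16, adjusted p = 0.00360). *Slc3a1* (ENSMUSG00000024131), the heavy subunit of a transporter of cystine and dibasic amino acids, had 92.2, 77.8 and 78.7 CPM in WT and 16.3, 10.7 and 17.5 in GR LKO (log2 fold change -2.48, standard error 0.19, adjusted p = 0.00360). *Eif4ebp3* (ENSMUSG00000090264), which binds the cap-binding factor eIF4E, had 25.2, 24.5 and 22.2 CPM in WT and 4.56, 3.31 and 2.41 in GR LKO (log2 fold change -2.79, standard error 0.21, adjusted p = 0.00360). For these 5 genes every GR LKO liver lay far below the lowest WT liver, and each call held without any single liver.

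The other 5 of the 12 genes that fell most have varied roles. *Tsku*, which encodes the secreted protein tsukushi, had 39.0, 30.9 and 56.0 CPM in WT and 10.3, 4.06 and 9.45 in GR LKO (log2 fold change -2.40, standard error 0.36, adjusted p = 0.0311). *Serpine2*, an inhibitor of serine proteases, had 19.0, 14.8 and 23.1 CPM in WT and 4.29, 2.96 and 5.77 in GR LKO (log2 fold change -2.13, standard error 0.26, adjusted p = 0.0170). *Extl1*, a glycosyltransferase of heparan sulfate, had 12.1, 5.55 and 9.79 CPM in WT and 1.85, 1.86 and 1.65 in GR LKO (log2 fold change -2.35, standard error 0.30, adjusted p = 0.0189). GR LKO livers were low for all 3 genes, and WT replicate 2 was the lowest WT liver of each. *Ccnf*, which encodes cyclin F, had 27.6, 18.4 and 24.7 CPM in WT and 5.11, 3.77 and 7.23 in GR LKO (log2 fold change -2.14, standard error 0.25, adjusted p = 0.0170). *Dct*, dopachrome tautomerase of melanin synthesis, had 5.09, 7.13 and 6.35 CPM in WT and 0.435, 0.232 and 0.825 in GR LKO (log2 fold change -3.64, standard error 0.41, adjusted p = 0.0141). Both were below every WT liver in each GR LKO liver. *Tsku* lost its call without WT replicate 1, 2 or 3 (0.112, 0.0715 and 0.109), or GR LKO replicate 3 (0.0588). *Serpine2* lost its call without WT replicate 1, 2 or 3 (0.0922, 0.0541 and 0.0929). *Extl1* lost its call without WT replicate 1 or 3 (0.0919 and 0.103), or GR LKO replicate 2 or 3 (0.0649 and 0.0513), and with replicate numbers as blocks (0.0516). *Ccnf* lost its call without WT replicate 1 or 3 (0.0904 and 0.0929), and *Dct* lost its call without WT replicate 1, 2 or 3 (0.0647, 0.0703 and 0.0855).

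Gene lists for 29 functions were fixed before the counts were read but with earlier results on these data known, so that they are not independent of the data. Together 710 of their 737 genes were tested and 36 called. For each list the calls stand beside 1.47% of all genes, the non-overlapping genes beside 26.8%, and the median fold change beside 0.004. Counts of genes with an unadjusted p under 0.05 stand beside 2340 of 12076. List members named below without a call were chosen after their values were seen.

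**Figure D2:**
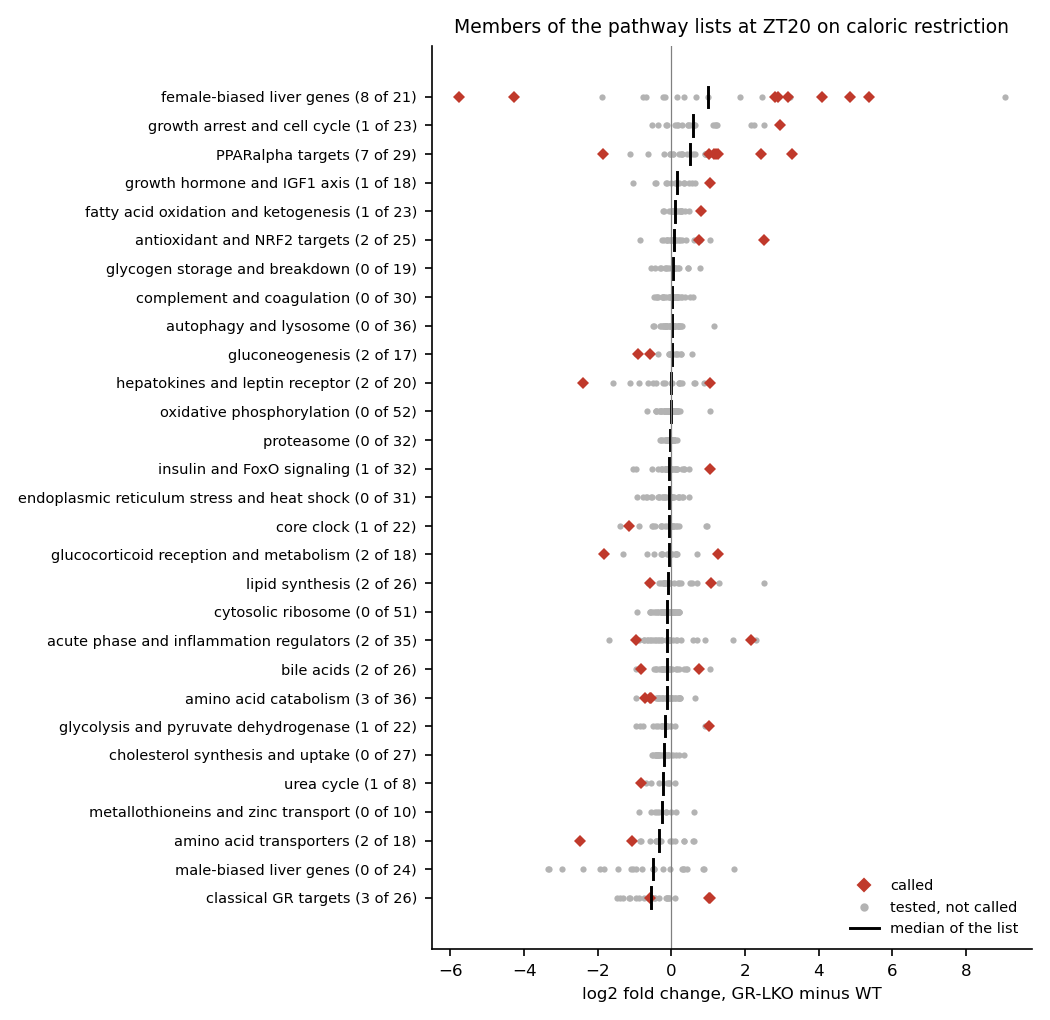
Log2 fold change of each tested gene of the 29 lists at ZT20 on caloric restriction, 1 point per gene, with called genes as red diamonds and the median of each list as a line (3 GR LKO against 3 WT livers). The median of PPARalpha targets was 0.51 and that of classical GR targets -0.55.

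Classical GR targets lay mostly lower in GR LKO livers at ZT20, but few passed the test. Of 26 tested, 2 rose and 1 fell, the median was -0.55, and 11 did not overlap, 9 of them lower in GR LKO. *Fkbp5*, a chaperone that limits GR signaling, had 56.0, 59.4 and 44.0 CPM in WT and 26.3, 27.2 and 10.5 in GR LKO without a call (log2 fold change -1.31, adjusted p = 0.107). *Klf9*, a transcription factor, had 134, 89.4 and 87.2 CPM in WT and 69.0, 43.2 and 72.1 in GR LKO (log2 fold change -0.75, adjusted p = 0.161). *Tdo2*, tryptophan dioxygenase, had 1108, 985 and 944 CPM in WT and 694, 620.0 and 743 in GR LKO (log2 fold change -0.56, adjusted p = 0.0634). The genotypes did not overlap for these 3 genes. *Per1* had 18.3, 15.7 and 8.93 CPM in WT and 9.13, 3.19 and 3.81 in GR LKO, where GR LKO replicate 1 lay above WT replicate 3 (log2 fold change -1.40, adjusted p = 0.156). For *Tat*, tyrosine aminotransferase, the log2 fold change was -0.33 (adjusted p = 0.560). DESeq2 called 10 members of the list.

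The called members were *Igfbp1*, *Pdk4* and *Sds*. *Igfbp1* (ENSMUSG00000020429), which binds insulin-like growth factors, rose from 32.1, 27.2 and 26.6 CPM in WT to 64.1, 50.7 and 63.9 CPM in GR LKO (log2 fold change 1.06, standard error 0.13, adjusted p = 0.0170). *Pdk4*, the kinase that inhibits pyruvate dehydrogenase, rose from 31.7, 45.4 and 51.2 CPM to 91.3, 85.6 and 82.4 CPM (log2 fold change 1.01, standard error 0.17, adjusted p = 0.0391). *Sds*, serine dehydratase, fell from 124, 104 and 129.7 CPM to 77.9, 75.9 and 85.9 CPM (log2 fold change -0.58, standard error 0.10, adjusted p = 0.0494). No liver crossed between the genotypes for the 3 genes. *Igfbp1* lost its call without WT replicate 1, 2 or 3 (0.0647, 0.0745 and 0.101), and in the fit of all caloric restriction livers (0.137). *Pdk4* lost its call without WT replicate 1, 2 or 3 (0.0732, 0.125 and 0.101), or GR LKO replicate 1, 2 or 3 (0.0753, 0.0949 and 0.0689), and with replicate numbers as blocks (0.0861). *Sds* lost its call without WT replicate 1, 2 or 3 (0.202, 0.0715 and 0.175), or GR LKO replicate 1, 2 or 3 (0.0841, 0.125 and 0.0647), with replicate numbers as blocks (0.0675), in the fit of all caloric restriction livers (0.1299), with size factors (0.0514), and with library totals (0.0770). The list had 2 calls without GR LKO replicate 1 or 3 and 1 without GR LKO replicate 2, and it kept none without any WT replicate (1, 2 or 3).

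Among 18 genes of glucocorticoid reception and metabolism, *Nr3c1* fell and 1 gene rose (median -0.07, 7 not overlapping). *Serpina6* (ENSMUSG00000060807), corticosteroid-binding globulin, had 171, 179.8 and 172 CPM in WT and 340.4, 555 and 355 in GR LKO (log2 fold change 1.26, standard error 0.19, adjusted p = 0.0311). The WT livers were within a narrow range and all GR LKO livers above it, replicate 2 the highest. *Hsd11b1*, which regenerates active glucocorticoid, had 696, 745 and 601 CPM in WT and 438, 572 and 466 in GR LKO without a call (log2 fold change -0.47, adjusted p = 0.131). *Serpina6* lost its call without WT replicate 1, 2 or 3 (0.143, 0.115 and 0.138).

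Genes of glucose metabolism gave few calls. In gluconeogenesis 2 of 17 tested genes fell and none rose, with a median of 0.00 and 7 not overlapping. *Slc37a4* (ENSMUSG00000032114), the glucose-6-phosphate transporter, fell from 105, 110.2 and 133 CPM to 53.7, 65.4 and 67.4 CPM (log2 fold change -0.90, standard error 0.13, adjusted p = 0.0259), and *Sds* is the other. *Pck1*, the cytosolic PEP carboxykinase, had 1553, 1028 and 913 CPM in WT and 636, 479 and 662 in GR LKO, apart but without a call (log2 fold change -0.97, adjusted p = 0.0865). *G6pc*, glucose-6-phosphatase, had a log2 fold change of -0.08 (adjusted p = 0.936). Of 22 genes of glycolysis and pyruvate dehydrogenase, *Pdk4* was the 1 call, the median was -0.17, and 12 did not overlap, 11 of them lower in GR LKO. *Pklr*, liver pyruvate kinase, had 208, 207 and 283 CPM in WT and 84.3, 159 and 115 in GR LKO (log2 fold change -0.96, adjusted p = 0.103), without overlap between the genotypes. *Slc37a4* lost its call without WT replicate 1, 2 or 3 (0.0922, 0.0843 and 0.109), or GR LKO replicate 2 (0.0660).

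Called genes of amino acid breakdown and the urea cycle were lower in GR LKO livers. Of 36 tested genes of amino acid catabolism 3 fell and 0 rose (median -0.13), and 15 did not overlap, 12 of them lower. *Gldc* (ENSMUSG00000024827), of the glycine cleavage system, had 292, 280.2 and 282 CPM in WT and 155, 186 and 175 in GR LKO (log2 fold change -0.72, standard error 0.09, adjusted p = 0.0170). *Prodh*, proline dehydrogenase, had 182, 196 and 217 CPM in WT and 139, 137 and 129.5 in GR LKO (log2 fold change -0.55, standard error 0.09, adjusted p = 0.0358), and *Sds* was the last of the 3. Of 8 urea cycle genes 1 fell, with a median of -0.23 and 4 lower without overlap. All WT livers were above all GR LKO livers for *Gldc*, *Prodh* and *Sds*. *Asl*, argininosuccinate lyase, had 679, 725 and 609 CPM in WT and 349, 391 and 501 in GR LKO without a call (log2 fold change -0.70, adjusted p = 0.0763). *Gldc* lost its call without WT replicate 1, 2 or 3 (0.0948, 0.0715 and 0.106), and with replicate numbers as blocks (0.0544). *Prodh* lost its call without WT replicate 1, 2 or 3 (0.0962, 0.125 and 0.137), or GR LKO replicate 1, 2 or 3 (0.0609, 0.0881 and 0.0743), with replicate numbers as blocks (0.0941), and with library totals (0.0712). Amino acid catabolism kept 1 call without GR LKO replicate 1, 2 or 3 and none without WT replicate 1, 2 or 3.

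Of 18 amino acid transporters 2 fell and 0 rose, with a median of -0.35 and 11 not overlapping, 9 of them lower. *Slc43a1*, which carries large neutral amino acids, had 10.9, 10.3 and 9.27 CPM in WT and 3.86, 5.69 and 5.01 in GR LKO (log2 fold change -1.07, standard error 0.18, adjusted p = 0.0373). *Slc3a1*, described above, was the other. *Slc43a1* lost its call without WT replicate 1, 2 or 3 (0.161, 0.136 and 0.128), or GR LKO replicate 2 or 3 (0.0602 and 0.0731), and with replicate numbers as blocks (0.0941).

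Targets of PPARalpha, the nuclear receptor of fatty acid oxidation, were mostly higher in GR LKO livers. Of 29 tested, 6 rose and 1 fell, the median was 0.51, and 19 did not overlap, 16 of them higher in GR LKO. *Vnn1* (ENSMUSG00000037440), a pantetheinase, rose 5.42-fold from 9.94, 6.72 and 6.41 CPM in WT to 33.4, 51.8 and 39.7 CPM in GR LKO (log2 fold change 2.44, standard error 0.23, adjusted p = 0.00873). Its relative *Vnn3* rose from 38.4, 41.1 and 45.6 CPM to 83.0, 110.5 and 94.5 CPM (log2 fold change 1.203, standard error 0.12, adjusted p = 0.0118). *Acaa1b*, a peroxisomal thiolase, rose from 517, 564 and 692 CPM to 1199, 1084 and 1673 CPM (log2 fold change 1.16, standard error 0.19, adjusted p = 0.0373). GR LKO replicate 2 was highest for both vanins and replicate 3 for *Acaa1b*. *Cyp4a32*, of the fatty acid omega-hydroxylases, rose from 14.9, 18.1 and 15.2 CPM to 43.6, 40.7 and 30.5 CPM (log2 fold change 1.25, standard error 0.16, adjusted p = 0.0170). *Cidec*, a protein of lipid droplets, rose from 0.303, 0.234 and 0.172 CPM to 2.50, 1.10 and 3.49 CPM (log2 fold change 3.29, standard error 0.54, adjusted p = 0.0373), and *Pdk4* was the sixth. *Acot1*, a cytosolic acyl-CoA thioesterase, fell from 9.34, 8.99 and 11.3 CPM to 2.55, 1.86 and 3.74 CPM (log2 fold change -1.86, standard error 0.26, adjusted p = 0.0239). None of these 7 genes overlapped between the genotypes. Calls in the PPARalpha list were 16 by DESeq2, and 5, 4 and 5 without GR LKO replicates 1, 2 and 3. They were 1, 0 and 0 without WT replicates 1, 2 and 3. Vnn, Cyp4a and Acot genes have close relatives that share reads. *Vnn1* lost its call without WT replicate 2 or 3 (0.0534 and 0.0630), and *Vnn3* lost its call without WT replicate 1, 2 or 3 (0.0740, 0.0688 and 0.0665). *Acaa1b* lost its call without WT replicate 1, 2 or 3 (0.161, 0.143 and 0.109), or GR LKO replicate 1 or 2 (0.0526 and 0.0530). *Cyp4a32* lost its call without WT replicate 1, 2 or 3 (0.0948, 0.0662 and 0.106), or GR LKO replicate 2 (0.0530). *Cidec* lost its call without WT replicate 1, 2 or 3 (0.147, 0.142 and 0.155), or GR LKO replicate 1 or 3 (0.0646 and 0.0702), and with replicate numbers as blocks (0.0833). *Acot1* lost its call without WT replicate 1, 2 or 3 (0.102, 0.0801 and 0.116), or GR LKO replicate 1 (0.0509).

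Further PPARalpha targets were apart without a call. *Fabp1*, liver fatty acid binding protein, had 1531, 1545 and 1555 CPM in WT and 2045, 2921 and 3831 in GR LKO (log2 fold change 0.93, adjusted p = 0.0893). *Angptl4*, an inhibitor of lipoprotein lipase, had 46.8, 29.7 and 24.4 CPM in WT and 10.2, 14.2 and 21.8 in GR LKO (log2 fold change -1.13, adjusted p = 0.135). GR LKO livers were higher for *Fabp1* and lower for *Angptl4*. Of 23 genes of fatty acid oxidation and ketogenesis 1 rose (median 0.11), and 8 were higher in GR LKO without overlap. *Bdh1* (ENSMUSG00000046598), beta-hydroxybutyrate dehydrogenase, had 125, 141 and 159.6 CPM in WT and 258, 233 and 247 in GR LKO (log2 fold change 0.79, standard error 0.11, adjusted p = 0.0209). *Cpt1a*, the entry enzyme of mitochondrial oxidation, had 239, 207 and 211 CPM in WT and 267, 303 and 283 in GR LKO (log2 fold change 0.38, adjusted p = 0.101). *Bdh1* lost its call without WT replicate 1, 2 or 3 (0.0948, 0.0920 and 0.0665), and with replicate numbers as blocks (0.0577).

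Lipid synthesis gave a call in each direction among 26 tested genes (median -0.10, 9 not overlapping). *Elovl5* (ENSMUSG00000032349), an elongase of polyunsaturated fatty acids, rose from 389.8, 579 and 465 CPM in WT to 804, 1189 and 1034 CPM in GR LKO (log2 fold change 1.08, standard error 0.19, adjusted p = 0.0471). *Mlxipl* (ENSMUSG00000005373), the carbohydrate response factor ChREBP, fell from 538, 554 and 568 CPM to 369.6, 354 and 376 CPM (log2 fold change -0.59, standard error 0.08, adjusted p = 0.0189). WT livers were all low for *Elovl5* and all high, within a narrow range, for *Mlxipl*. Of 26 bile acid genes 1 rose and 1 fell (median -0.13, 8 not overlapping). *Abcc3*, an efflux pump of conjugated organic anions, rose from 169, 177 and 182 CPM to 314, 283 and 287 CPM (log2 fold change 0.74, standard error 0.08, adjusted p = 0.0123). *Cyp2c70*, the enzyme that makes muricholic acids, fell from 541, 498 and 389 CPM to 230.4, 276 and 296 CPM (log2 fold change -0.83, standard error 0.15, adjusted p = 0.0494). *Elovl5* lost its call without WT replicate 1, 2 or 3 (0.172, 0.0821 and 0.191), or GR LKO replicate 2 or 3 (0.106 and 0.0863). *Mlxipl* lost its call without WT replicate 1, 2 or 3 (0.0974, 0.0890 and 0.115), or GR LKO replicate 2 (0.0612), and with replicate numbers as blocks (0.0619). *Abcc3* lost its call without WT replicate 1, 2 or 3 (0.0919, 0.0703 and 0.0767). *Cyp2c70* lost its call without WT replicate 1, 2 or 3 (0.184, 0.1603 and 0.100), or GR LKO replicate 1, 2 or 3 (0.0760, 0.118 and 0.0649), with replicate numbers as blocks (0.115), and with size factors (0.0509).

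Genes that are higher in female than in male liver held the most calls of any list in the main fit, 8 beside 7 for PPARalpha targets. Of 28 listed, 21 were tested, 6 rose and 2 fell, the median was 1.00, and 12 did not overlap, 9 of them higher in GR LKO. *Hao2* (ENSMUSG00000027870), a peroxisomal hydroxyacid oxidase, had 0.0606, 0.350 and 0.172 CPM in WT and 2.39, 5.45 and 2.41 in GR LKO (log2 fold change 4.08, standard error 0.61, adjusted p = 0.0311). *Cyp2a4*, *Cyp2a22*, *Cyp2b10*, *Slc22a26* and *Slc22a27* rose with it, while *Cyp2c40* and *Cyp17a1* fell. *Cyp2b9*, a female P450, had 19.1, 61.7 and 27.4 CPM in WT and 191, 604 and 212 in GR LKO without a call (log2 fold change 3.22, adjusted p = 0.0561). GR LKO replicate 2 was highest for *Hao2* and *Cyp2b9*. The PPARalpha list held more calls than this one with DESeq2 (16 beside 11), in the fit of all caloric restriction livers (14 beside 13) and with library totals (9 beside 8). In the list of female-biased genes edgeR called 5 without GR LKO replicate 2 and 2, 2 and 1 without WT replicates 1, 2 and 3. *Hao2* lost its call without WT replicate 1, 2 or 3 (0.119, 0.0715 and 0.139), or GR LKO replicate 2 (0.0680), and without WT replicate 2 its log2 fold change was 4.78.

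Genes that are higher in male liver had no call in edgeR among 24 tested, of which 10 had an unadjusted p under 0.05 and DESeq2 called 1. Their median was -0.49, and 8 did not overlap, 7 of them lower in GR LKO. *Mup7*, a major urinary protein, had 3679, 1425 and 1463 CPM in WT and 26.5, 36.3 and 598 in GR LKO (log2 fold change -3.31, adjusted p = 0.199). *Hsd3b5*, a male steroid dehydrogenase, had 72.7, 59.7 and 44.6 CPM in WT and 0.598, 0.522 and 16.5 in GR LKO (log2 fold change -3.36, adjusted p = 0.157). *Serpina1e* had 2643, 1458 and 1335 CPM in WT and 176, 23.0 and 499.7 in GR LKO (log2 fold change -2.96, adjusted p = 0.1595). GR LKO replicate 3 kept far more of *Mup7* and *Hsd3b5* than the other 2 GR LKO livers, and the genotypes still did not overlap. Without GR LKO replicate 1 the list had 1 call and without GR LKO replicate 3 it had 2. Mup and Serpina1 genes are families of near-identical copies.

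The inflammation list had a call in each direction, and the called antioxidant genes rose. Of 35 acute phase genes and inflammation regulators 1 rose and 1 fell (median -0.13), and 12 did not overlap, 10 of them lower in GR LKO. *Orm2*, the acute phase protein orosomucoid 2, rose from 13.04, 30.1 and 25.2 CPM in WT to 97.3, 139.6 and 68.5 CPM in GR LKO (log2 fold change 2.16, standard error 0.36, adjusted p = 0.0373). *Il1r1* (ENSMUSG00000026072), the interleukin-1 receptor, fell from 34.9, 25.6 and 29.6 CPM to 16.1, 15.1 and 14.9 CPM (log2 fold change -0.96, standard error 0.13, adjusted p = 0.0212). *Il6ra*, the interleukin-6 receptor, had 19.5, 19.97 and 18.7 CPM in WT and 13.3, 8.35 and 10.1 in GR LKO without a call (log2 fold change -0.87, adjusted p = 0.0610). Of 25 antioxidant and NRF2 target genes 2 rose (median 0.08, 7 not overlapping). *Gsta1*, a glutathione S-transferase, rose from 6.55, 15.6 and 20.9 CPM to 119, 69.6 and 59.0 CPM (log2 fold change 2.52, standard error 0.43, adjusted p = 0.0433), and *Abcc3* was the other. GR LKO livers were all above WT livers for *Orm2* and *Gsta1* and all below them for *Il1r1*. Orm and Gsta genes have close relatives that share reads. The inflammation list had no call without GR LKO replicate 2 or WT replicate 1 or 3, and the antioxidant list had none without WT replicate 1, 2 or 3. *Orm2* lost its call without WT replicate 1, 2 or 3 (0.103, 0.0890 and 0.139), or GR LKO replicate 1 or 2 (0.0646 and 0.0815), with replicate numbers as blocks (0.0538), and in the fit of all caloric restriction livers (0.0748). *Il1r1* lost its call without WT replicate 1 or 3 (0.0899 and 0.103), or GR LKO replicate 2 or 3 (0.0663 and 0.0513). *Gsta1* lost its call without WT replicate 1, 2 or 3 (0.0948, 0.143 and 0.109), or GR LKO replicate 1, 2 or 3 (0.0654, 0.0842 and 0.0553), and with replicate numbers as blocks (0.115).

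Of 23 genes of growth arrest and the cell cycle 1 rose (median 0.58), and 8 were higher in GR LKO without overlap. *Mcm6* (ENSMUSG00000026355), a subunit of the replicative helicase, had 2.43, 2.92 and 2.58 CPM in WT and 35.7, 10.96 and 14.5 in GR LKO (log2 fold change 2.95, standard error 0.46, adjusted p = 0.0336). *Mki67*, a marker of proliferating cells, had 0.606, 0.584 and 0.801 CPM in WT and 6.57, 3.13 and 1.65 in GR LKO (log2 fold change 2.50, adjusted p = 0.0786). *Cdk1* had 0.485, 0.526 and 0.458 CPM in WT and 3.69, 1.68 and 1.27 in GR LKO (log2 fold change 2.17, adjusted p = 0.0824), and *Ccnd1*, cyclin D1, 8.67, 13.8 and 12.99 CPM and 43.6, 19.3 and 17.0 CPM (log2 fold change 1.17, adjusted p = 0.167). GR LKO replicate 1, with its high Kupffer, stellate and lymphocyte markers, was the highest liver for all 4 genes, and the genotypes did not overlap. *Cdkn1a*, the inhibitor p21, had 17.3, 7.59 and 14.0 CPM in WT and 18.2, 6.56 and 10.1 in GR LKO, which overlapped (log2 fold change -0.16, adjusted p = 0.878). *Mcm6* lost its call without WT replicate 1, 2 or 3 (0.152, 0.122 and 0.139), and with replicate numbers as blocks (0.0659), and without GR LKO replicate 1 its log2 fold change was 2.26. On control diet at ZT20 it had 2.12, 2.48, 2.94 and 25.3 CPM in WT and 24.9, 4.15 and 10.01 in GR LKO. It was not called there (log2 fold change 0.69, adjusted p = 0.841), and WT replicate 4 was as high as the highest GR LKO liver.

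The hormone and clock lists gave 1 or 2 calls each. Among 18 genes of the growth hormone and IGF1 axis (median 0.16, 4 not overlapping) and 32 of insulin and FoxO signaling (median -0.06, 6 not overlapping) *Igfbp1* alone was called. Among 20 hepatokine and leptin receptor genes *Igfbp1* rose and *Tsku* fell (median 0.00, 9 not overlapping). Of 22 genes tested in the core clock list only *Usp2* was called, and it fell (median -0.07, 5 not overlapping). *Usp2*, a deubiquitinase with a daily rhythm, had 14.5, 11.2 and 12.3 CPM in WT and 6.41, 4.87 and 5.65 in GR LKO, every WT liver above every GR LKO liver (log2 fold change -1.16, standard error 0.16, adjusted p = 0.0234). *Usp2* lost its call without WT replicate 1, 2 or 3 (0.108, 0.0715 and 0.106), or GR LKO replicate 2 or 3 (0.0616 and 0.0537).

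The other 9 lists, like the male-biased genes, had no call. Their medians were 0.05 for glycogen storage (19 genes), -0.20 for cholesterol synthesis and uptake (27), 0.03 for complement and coagulation (30), -0.24 for metallothioneins and zinc transport (10) and 0.01 for autophagy and lysosome (36). They were -0.06 for endoplasmic reticulum stress and heat shock (31), -0.12 for the cytosolic ribosome (51), -0.01 for oxidative phosphorylation (52) and -0.03 for the proteasome (32). In these 10 lists edgeR called 0 of 311 genes, and DESeq2 called 24. An unadjusted p under 0.05 was found for 65 of the 311, beside 2340 of all 12076 genes tested. *Srebf2*, the sterol response factor of the cholesterol list, had 78.5, 72.4 and 88.6 CPM in WT and 64.2, 50.1 and 53.2 in GR LKO (log2 fold change -0.52, adjusted p = 0.0941).

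The genotypes were compared in the same way at the other times, whose livers came from other mice. On caloric restriction 61 genes were called at ZT0 (0.502% of those tested), 83 at ZT4 (0.690%), 308 at ZT8 (2.55%), 1795 at ZT12 (15.3%) and 541 at ZT16 (4.54%), and on control diet 50 at ZT20 (0.420%). Of the 178 genes called at ZT20, 108 were also called at ZT12 and 105 of these in the same direction. At ZT16 92 were called and at ZT8 70, of which 92 and 69 went the same way. At ZT0 29, at ZT4 27 and on control diet at ZT20 21 were called, all in the ZT20 direction. *Acnat2* was lower in GR LKO at each time, with log2 fold changes of -2.65, -2.77, -3.35, -3.81 and -3.53 from ZT0 to ZT16 and -2.21 on control diet at ZT20. It was not called at ZT0 (adjusted p = 0.0572) or on control diet at ZT20 (adjusted p = 0.0748).

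Whether the effect of GR loss differed between ZT20 and ZT12, when food is offered, was tested as an interaction of genotype and time over the 12 livers of both times. It was called for 445 of 12448 genes (3.57%), with 204 differences above 0 and 241 below. Of the 178 genes called at ZT20, 27 were among them. *Igfbp1* turned its direction, since it rose at ZT20 and fell at ZT12 (log2 fold change -3.64, adjusted p = 0.00508). At ZT12 WT livers had 156, 569.8 and 241 CPM and GR LKO livers 36.1, 19.0 and 22.5 CPM, so that WT livers were high at ZT12 and low at ZT20. The difference of the 2 effects was 4.68 (standard error 0.57, adjusted p = 0.00200). *Il1r1* fell at both times but by 3.34 at ZT12 (WT 175, 148 and 168 CPM, GR LKO 20.3, 11.9 and 16.4 CPM), a difference of 2.36 (standard error 0.23, adjusted p = 0.000743). *Eif4ebp3* fell by 4.79 at ZT12, where WT livers had 108, 148 and 125 CPM and GR LKO livers 4.71, 5.17 and 3.86 CPM, a difference of 1.98 (standard error 0.27, adjusted p = 0.00356).

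Genes of other roles differed between the times as well. *Cyp2c40* had 0.773, 15.4 and 91.5 CPM in WT and 107, 131 and 124 in GR LKO at ZT12, and its effects differed by -7.52 (standard error 1.46, adjusted p = 0.0224). The GR LKO livers were thus high in this P450 at ZT12 and low at ZT20. Its genotype effect at ZT12 was not called (log2 fold change 1.74, adjusted p = 0.314). The WT livers there ranged from 0.773 to 91.5 CPM, so that their mean depends strongly on replicate 3. *Mcm6* had 3.67, 2.48 and 2.05 CPM in WT and 3.30, 1.79 and 3.13 in GR LKO at ZT12, a difference of 2.92 (standard error 0.60, adjusted p = 0.0263). *Mlxipl* had a log2 fold change of 0.04 at ZT12, a difference of -0.65 (standard error 0.13, adjusted p = 0.0259). *Slc43a1* had -2.46 at ZT12, a difference of 1.38 (adjusted p = 0.0432). The interaction of *Cyp2c40* lost its call without ZT12 WT replicate 2 (0.0544), or ZT20 WT replicate 1 (0.0512), or ZT20 GR LKO replicate 2 or 3 (0.0506 and 0.0505). That of *Mcm6* lost it without ZT12 GR LKO replicate 2 or 3 (0.0575 and 0.0574), or ZT12 WT replicate 1 or 2 (0.0541 and 0.0544), or ZT20 WT replicate 1, 2 or 3 (0.0689, 0.0603 and 0.0680). That of *Mlxipl* lost it without ZT12 GR LKO replicate 2 or 3 (0.0562 and 0.0672), or ZT20 WT replicate 1, 2 or 3 (0.0580, 0.0619 and 0.0706), or ZT20 GR LKO replicate 2 (0.0550), or ZT12 WT replicate 3 (0.0598), and with replicate numbers as blocks (0.0542). That of *Slc43a1* lost it without ZT12 GR LKO replicate 1 or 3 (0.0825 and 0.102), or ZT12 WT replicate 2 or 3 (0.0933 and 0.0920), or ZT20 WT replicate 1, 2 or 3 (0.0860, 0.0917 and 0.103), or ZT20 GR LKO replicate 2 or 3 (0.0905 and 0.0780).

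The 6 genes named by the rule for this interaction were all lower in GR LKO at ZT12 and nearer to WT at ZT20. Of these, 4 are among 9 genes that tied at the third smallest adjusted p, *Il1r1* among them, and the tie was broken without regard to the values. *Gfra1* (ENSMUSG00000025089), a co-receptor of glial cell line-derived neurotrophic factor, had 404, 417 and 419 CPM in WT and 110.5, 106 and 99.8 in GR LKO at ZT12, and 139, 125 and 132 and 81.2, 82.9 and 79.8 CPM at ZT20. It fell at ZT20 (log2 fold change -0.70, standard error 0.07, adjusted p = 0.0121), and so did *Cdip1*, a target of p53, from 95.9, 88.5 and 91.0 CPM to 55.1, 63.9 and 59.5 CPM (log2 fold change -0.63, standard error 0.08, adjusted p = 0.0212). *Fbxo31*, a subunit of a ubiquitin ligase, fell from 23.8, 21.9 and 26.2 CPM to 14.2, 13.7 and 14.4 CPM (log2 fold change -0.76, standard error 0.10, adjusted p = 0.0199). *Nucks1*, a nuclear DNA-binding protein, had 139, 129 and 128 CPM in WT and 47.1, 41.1 and 35.4 in GR LKO at ZT12. At ZT20 it had 68.9, 67.9 and 65.9 and 67.1, 73.0 and 57.4 CPM, with GR LKO replicate 2 the highest and replicate 3 the lowest liver. *Susd6* had 43.1, 42.1 and 39.5 CPM in WT and 53.3, 48.3 and 44.8 in GR LKO at ZT20 (log2 fold change 0.23, adjusted p = 0.230), and *Slc45a3* 64.3, 50.7 and 65.5 CPM and 47.5, 44.3 and 39.5 CPM (log2 fold change -0.46, adjusted p = 0.121). *Gfra1* lost its call without WT replicate 1, 2 or 3 (0.0816, 0.0541 and 0.0772). *Cdip1* lost its call without WT replicate 1, 2 or 3 (0.119, 0.0821 and 0.116), or GR LKO replicate 3 (0.0513), and with replicate numbers as blocks (0.0748). *Fbxo31* lost its call without WT replicate 1, 2 or 3 (0.0962, 0.0662 and 0.101), or GR LKO replicate 2 (0.0637), and with replicate numbers as blocks (0.0544).

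DESeq2 called 929 genes in the interaction with ZT12, and edgeR 247 with the replicate numbers as blocks. Leaving out GR LKO replicate 1 of ZT20, the liver with the high non-hepatocyte markers, gave 714 calls. There were 256 without GR LKO replicate 2 of ZT20, and 177, 172 and 171 without WT replicates 1, 2 and 3 of ZT20. There were 254 and 209 without GR LKO replicates 2 and 3 of ZT12, and 207 and 226 without WT replicates 2 and 3 of ZT12. *Igfbp1*, *Il1r1*, *Eif4ebp3*, *Gfra1*, *Cdip1*, *Susd6*, *Fbxo31*, *Nucks1* and *Slc45a3* kept their interaction calls in all 12 fits without 1 liver.

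Against ZT16, 4 h after the food was offered, the interaction was called for 2 of 12452 genes (0.0161%), while 932 had an unadjusted p under 0.05 and DESeq2 called 77. None of the 178 genes called at ZT20 was among the 2 in edgeR, 62 of the 178 had an unadjusted p under 0.05 there, and DESeq2 called 17. *Ddx46* (ENSMUSG00000021500), an RNA helicase of splicing, had 29.1, 16.7 and 28.6 CPM in WT and no count in the 3 GR LKO livers at ZT16. At ZT20 it had 41.2, 42.3 and 44.7 CPM in WT and 33.0, 43.2 and 41.0 in GR LKO, which overlapped (log2 fold change -0.13, adjusted p = 0.576), and the interaction had an adjusted p = 0.000212. At ZT12 its WT livers had 41.1, 45.4 and 0 CPM, so that a liver without a count occurred in WT too. *Insig1* (ENSMUSG00000045294), which holds sterol response factors in the endoplasmic reticulum, had 761, 789 and 710.4 CPM in WT and 382, 444 and 438 in GR LKO at ZT16, and 560.1, 543 and 597 and 690.1, 788 and 676 CPM at ZT20 (log2 fold change 0.34, adjusted p = 0.128). GR LKO livers were thus the lower ones at ZT16 and the higher ones at ZT20, and the effects differed by 1.182 (standard error 0.13, adjusted p = 0.0102). The interaction of *Insig1* lost its call without ZT20 WT replicate 1 or 2 (0.0638 and 0.0556), or ZT16 WT replicate 1 (0.0567). The count was 4 without GR LKO replicate 3 of ZT16, and 1 without WT replicate 1 of ZT16 or WT replicate 1 of ZT20.

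Between caloric restriction and control diet at ZT20, the interaction of genotype and diet was called by edgeR for 0 of 12599 genes (0%), while 878 had an unadjusted p under 0.05 and DESeq2 called 46. The lowest adjusted p in edgeR was 0.212, which *Cyp2c40* had (difference -4.75, standard error 0.69). On control diet its WT livers had 2.04, 1.57, 2.17 and 2.86 CPM and its GR LKO livers 1.71, 0.405 and 0.797 CPM (log2 fold change -1.11, adjusted p = 0.447). Of the 178 genes called at ZT20, 0 were called here by edgeR, 52 had an unadjusted p under 0.05 and DESeq2 called 11. The control diet had 4 WT and 3 GR LKO livers, and its libraries form another number series with lower totals (10057400 to 15292100 counts beside 15904100 to 17874200). Diet and library series cannot be told apart. The interaction takes out a shift that both genotypes share, and whether the effect of genotype differed between the library series was not tested. *Slc3a1* had 47.9, 40.9, 61.3 and 51.6 CPM in WT and 72.4, 12.7 and 18.1 in GR LKO on control diet (log2 fold change -0.53, adjusted p = 0.761), and the difference of -1.96 had an adjusted p = 0.609. *Apoa4* had 91.2, 104, 121 and 85.1 CPM in WT and 239, 25.7 and 32.5 in GR LKO on control diet, and its difference of -2.06 had an adjusted p = 0.697. For *Slc3a1* and *Apoa4*, GR LKO replicate 1 on control diet lay above every WT liver of that diet, and GR LKO replicates 2 and 3 lay below them. The sizes of both differences therefore depend on that 1 liver. A difference between the diets was not shown for *Cyp2c40*, *Slc3a1* or *Apoa4*. The count of called genes was 9 without GR LKO replicate 1 on caloric restriction, and 1 without GR LKO replicate 2, GR LKO replicate 3 or WT replicate 1 on caloric restriction or WT replicate 2 on control diet.

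**Figure D3:**
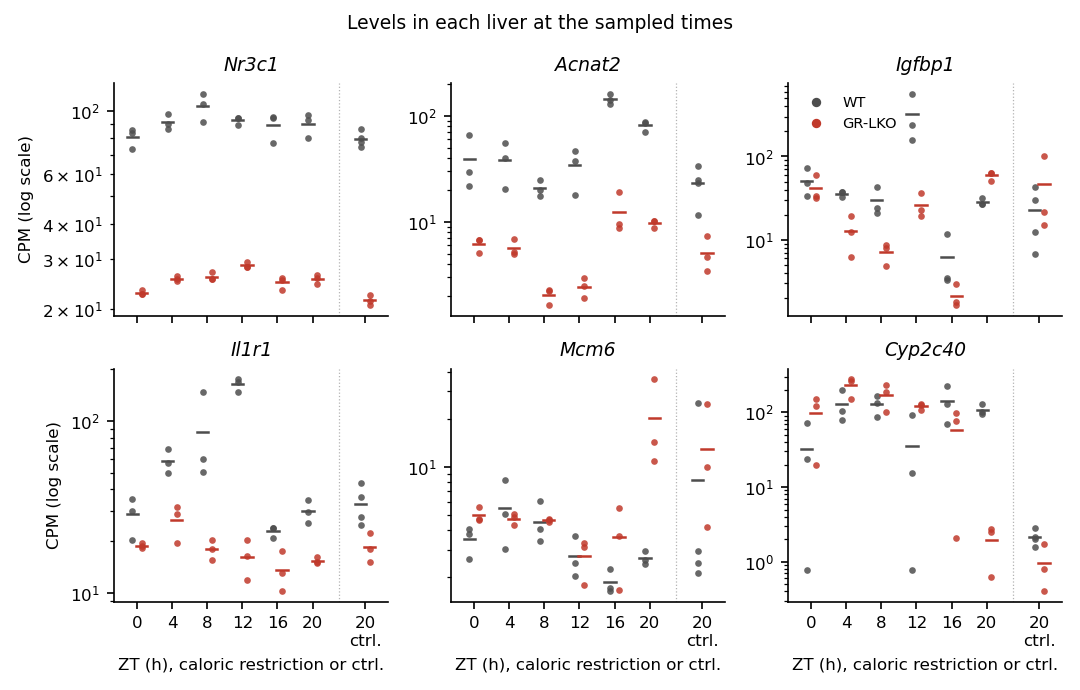
Level of named genes in each liver at the 6 times of caloric restriction and at ZT20 on control diet, in CPM, WT in grey and GR LKO in red, 1 point per liver with the mean of each group as a line, scaled within the livers of each time. *Igfbp1* in WT livers reached 569.8 CPM at ZT12 and 32.1 CPM at ZT20.

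The promoter of *Acnat2*, the gene with the smallest adjusted p, is shown because it was the 1 promoter among those of the named genes that fell to hold the palindromic pattern of a full GR binding element, GNACANNNTGTNC. Promoters were taken as 300 bases, 250 before and 50 after the gene start, from RefSeq gene models on build GRCm38.p6. The pattern occurred in 145 of 27025 genes (0.537%) and 156 of 32851 promoters (0.475%). It occurred in 1 of 22 named genes that fell and 0 of 22 that rose, and in 2 of 65 of all called genes that fell and 0 of 71 that rose, among genes with a promoter in the set. The other match was *Serpina3c* on chromosome 12. A match is a description of the sequence and not a measured binding site. The *Acnat2* promoter lies at chr4:49408102-49408401 on the minus strand and is given in the direction of transcription, with the match, whose first base is 101 before the gene start, in capitals.

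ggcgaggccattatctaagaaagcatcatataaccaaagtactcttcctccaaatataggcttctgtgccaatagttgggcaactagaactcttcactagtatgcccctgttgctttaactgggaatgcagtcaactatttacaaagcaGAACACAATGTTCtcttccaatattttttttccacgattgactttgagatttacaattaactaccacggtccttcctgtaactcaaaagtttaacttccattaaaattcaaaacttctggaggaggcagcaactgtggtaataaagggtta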

How the data were processed

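The authors deposited estimated counts per gene, which they made with Salmon and tximport after quality checks with FastQC and MultiQC, and their processing notes name DESeq2 and mm10. The counts were rounded to whole numbers here and tested in R 4.3.3 with edgeR 4.0.16 (quasi-likelihood F test, TMM scaling, filterByExpr at a minimum count of 10), on the livers of each comparison alone. Adjustment over all tested genes used the Benjamini-Hochberg procedure, and a gene was called under 0.05. Interactions were fitted over 4 groups. DESeq2 1.42.0, other scalings, no filter, a fit of all livers on caloric restriction, replicate blocks and fits without single livers were tried beside it. The code was first run on simulated counts. Correlations between livers by replicate number used log2 CPM from edgeR. Tables and figures were made with Python 3.11.15.

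Named genes were *Nr3c1*, the 12 called protein-coding genes with the largest rise and the 12 with the largest fall (mean of at least 5 CPM in a genotype, no overlap), up to 6 called members of each list, and up to 6 called genes of each interaction with the smallest adjusted p. Some genes that the rule takes are left unnamed in the text but stay in its counts. Lists and samples were chosen with earlier results on these data known. Of 27654 gene IDs, 27244 matched a symbol. Coordinates are from GENCODE vM21 and RefSeq (GRCm38.p6). Standard errors come from the F statistic. The deposited notes name a TruSeq RNA kit and the study's methods also name a stranded Illumina kit, so that it is not known here whether reads of overlapping genes were separated by strand. Replicates were not duplicates, with a chi-square per degree of freedom of 12.4 to 18.1 between WT pairs and 38.3 to 42.2 between GR LKO pairs. Floors and intervals cover counting error only.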

Additional observations from a re-analysis of the deposited data

Results flagged for a closer look

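The rule for named genes took 8 genes for a difference in the effect of GR loss between ZT20 and ZT12 or ZT16, the 2 other times that were tested. Against ZT12 the effects differed by 1.25 on the log2 scale for *Gfra1* (adjusted p = 0.000609), by 1.23 for *Cdip1* (adjusted p = 0.000633) and by 1.195 for *Susd6* (adjusted p = 0.000743). The differences were 1.17 for *Fbxo31* (adjusted p = 0.000743), 1.63 for *Nucks1* (adjusted p = 0.000743) and 1.96 for *Slc45a3* (adjusted p = 0.000743). Against ZT16 the fitted difference was 11.58 for *Ddx46* (adjusted p = 0.000212), which rests on 3 GR LKO livers without a count at ZT16 and is not a bound. For *Insig1* it was 1.182 (adjusted p = 0.0102). Against ZT12 *Il1r1*, *Igfbp1* and *Eif4ebp3* had smaller adjusted p-values (0.000743, 0.00200 and 0.00356) than *Insig1* against ZT16, and *Il1r1* tied with the last 4 genes named against ZT12.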

How the results depend on the processing

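At ZT20 on caloric restriction the count of 178 called genes became 686 with DESeq2, 1127 in 1 fit of all caloric restriction livers, 176 with DESeq2 size factors, 180 with library totals (121 higher and 59 lower) and 196 with no filter on low counts. Leave-one-out counts ran from 16 to 194. The interaction with ZT12 gave 445, and then 929 with DESeq2, 437 with size factors, 331 with no filter and 171 to 714 with 1 liver left out. The interaction with ZT16 gave 2, and then 77 with DESeq2, 2 with size factors, 2 with no filter and 1 to 4 with 1 liver left out. The interaction of genotype and diet gave 0 in edgeR (878 genes at an unadjusted p under 0.05), 46 with DESeq2, 0 with size factors, 0 with no filter and 0 to 9 with 1 liver left out.

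With the replicate numbers as blocks 76 genes were called at ZT20, 247 in the interaction with ZT12, 2 in that with ZT16 and 0 in that with diet. Livers of the same replicate number correlated at -0.02, 0.02 and 0.03 beyond their group between WT and GR LKO at ZT20, and not every liver correlated best with its own number. Same-number correlations ran from -0.028 to 0.066 in the interaction with ZT12, from -0.116 to 0.066 in that with ZT16 and from -0.071 to 0.254 in that with diet. The highest with diet were 0.254 and 0.180 between the 2 diets for GR LKO replicates 1 and 3, and different numbers reached 0.247 there.

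Of the 58 named genes, none that was called in the main fit or in a setting reversed direction in the 12 settings. *Nucks1*, called in none of them, had a log2 fold change of -0.037 in the main fit and turned to 0.026 with library totals and 0.049 without GR LKO replicate 3. The call or its lack was the same for 56 with DESeq2, where *Slc45a3* and *Insig1* were called in addition, 56 with size factors, 56 with library totals, 58 with no filter, 54 in the fit of all caloric restriction livers and 39 with blocks. It was the same for 47, 36 and 43 without GR LKO replicates 1, 2 and 3 and for 16, 17 and 14 without WT replicates 1, 2 and 3.

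With 3 livers in a group, leaving out a WT liver, whichever it was, took the call from most of the called named genes. Leaving out a GR LKO liver took it from fewer. The lack of a call does not show that a gene is the same in both genotypes. With a median of 17200000 counts, the floor of 3 counts lay between 0.163 and 0.190 CPM. The counts come from whole liver at 1 moment, in males only, so that cell types, protein levels and the hours between the sampled times were not measured.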

Other observations

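Genes outside the rule for named genes are given here, chosen after their values were seen. *Glul*, glutamine synthetase of the hepatocytes around the central vein, had 866, 916 and 968 CPM in WT and 481, 502 and 472 in GR LKO (log2 fold change -0.92, adjusted p = 0.00873). *Lgals1*, galectin 1, had 7.52, 7.01 and 8.19 CPM in WT and 37.6, 32.7 and 54.0 in GR LKO (log2 fold change 2.45, adjusted p = 0.00477). *Serpina7*, which encodes thyroxine-binding globulin, had 31.5, 23.7 and 46.8 CPM in WT and 187, 229 and 149 in GR LKO (log2 fold change 2.47, adjusted p = 0.0128). *Apoc3*, apolipoprotein C-III, had 1547, 1397 and 1365 CPM in WT and 895, 864 and 964 in GR LKO (log2 fold change -0.66, adjusted p = 0.0301). *Avpr1a*, the vasopressin receptor of hepatocytes, had 54.3, 47.0 and 50.9 CPM in WT and 23.5, 21.3 and 19.0 in GR LKO (log2 fold change -1.25, adjusted p = 0.00625). *Lgals1* and *Serpina7* were higher in every GR LKO liver, and *Glul*, *Apoc3* and *Avpr1a* were lower. *Glul* lost its call without WT replicate 2 or 3 (0.0541 and 0.0665). *Serpina7* lost its call without WT replicate 1 (0.0904), and with replicate numbers as blocks (0.0516). *Apoc3* lost its call without WT replicate 1, 2 or 3 (0.135, 0.106 and 0.116), or GR LKO replicate 2 (0.0761), and with replicate numbers as blocks (0.0777). The calls of *Lgals1* and *Avpr1a* held without any single liver.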
